A study of Mus musculus with 2 samples.

Results

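The genes described here are the expressed Zfp genes of mouse CD8+ T cells, that is, the genes whose symbol begins with Zfp and a number. Members were chosen by their measured intensity, which had to reach 100 on at least 1 of the 2 arrays, among the probe sets that the platform's annotation gives to 1 gene only, with Zfp36, Zfp36l1 and Zfp36l2 left out. Where a gene had several such probe sets, the one with the highest average of the 2 arrays stands for it. That rule kept 217 of the 333 Zfp genes with a probe set of their own, among 9848 genes measured in the same way. The remaining 116 Zfp genes lay under 100 on both arrays, and they include symbols ending in os or -ps, such as Zfp652os and Zfp862-ps. Since the level chose the members, their expression in CD8+ T cells is a description and no finding.

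The arrays compared naive CD8+ T cells with proliferating CD8+ T cells taken 72 h after activation, both purified from pmel-1 mice. The T cell receptor transgene of that strain, directed against an antigen of melanocytes, is thus shared by both groups. The sources used here do not give the activating stimulus, the animals' age and sex or the purification method. Each array was hybridised with RNA pooled from 4 independent experiments, so each group is 1 sample. No difference below therefore has a replicate error or a test, and the 2 arrays limit the precision of every value. The study's title concerns imaging of immune activation with a labelled deoxycytidine analogue, so the comparison asks how resting cells differ from dividing ones.

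Zfp is a naming series and not a single family. Most of its members carry C2H2 zinc fingers, small folds in which 2 cysteines and 2 histidines hold a zinc ion, and many stack such fingers in rows that read DNA. A large share of these proteins also has a KRAB box, which recruits the scaffold protein Trim28 and, through it, enzymes that lay down silent chromatin over retroelements and imprinted genes. Others act at promoters without a KRAB box, bind RNA, or work on ribosomes and chromosomes. In lymphocytes, leaving the resting state involves a broad change of the transcription factors that hold quiescence in place. Genes of KRAB zinc finger proteins often lie side by side in the genome, in clusters that grew by duplication.

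As a check of the labels, 5 of the 6 measured CD8 T cell markers, Cd8a, Cd3d, Cd3e, Cd3g and Cd8b1, reached 2724 or more on both arrays, while Cd4 lay at 45.1 on the naive and 50.5 on the activated array. Of the 6 lists of markers of other cells, 5 had a higher sum on the naive array, and the CD4 T cell list, with all 3 genes under 100, had sums of 147 and 149. The summed intensity of the B cell list was 2630.3 on the naive and 222 on the activated array, and of the myeloid list 1067 and 580.4. For the NK cell list it was 297 and 57.7, for the dendritic cell list 244.6 and 131, and for the erythroid list 284.5 and 152. In the dendritic cell list only Itgax (115 and 27.6) reached 100, and in the erythroid list only Alas2 (127 and 1) and Slc4a1 (107 and 105). None of these passed the size rule defined below. Of the myeloid genes only Csf1r (642 and 345) and Lyz2 (173 and 21.8) reached 100, and of the NK cell genes only Klra8 (242 and 29.9). In the B cell list 4 of the 5 genes with a probe set of their own reached 100 in naive cells, and 0 of them did after activation. Most of the naive sum came from H2-Aa (2007 and 83.0). The part of these cells' RNA in the Zfp values was not tested. Less RNA per cell and fewer cells of a kind cannot be told apart in pooled RNA. No marker was at 0, and Alas2 and S100a9 were at 1 on the activated array.

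A gene was called higher or lower when the ratio of the arrays was at least 1.4 after values under 100 had been raised to 100, and the deposited intensities differed by more than 100. By that size rule 61 of the 217 Zfp genes were lower in activated cells and 13 were higher, and 143 passed in neither direction. Over all measured genes 20.6% were lower and 23.7% higher, against 28.1% and 5.99% of the Zfp genes. The median log2 ratio of activated over naive was -0.33 for the Zfp genes, with quartiles of -0.72 and 0.04, and 0.01 for all measured genes. With values raised to 200 in place of 100, the medians were -0.07 for the Zfp genes and 0.00 for all measured genes. In all, 159 Zfp genes had a log2 ratio below 0 and 58 above it. The share of higher members lay further from the background than the share of lower ones. At a fold minimum of 2, 25 Zfp genes (11.5%) were lower against 9.18% of all measured genes, and 8 (3.69%) were higher against 12.1%. With a difference of more than 200 required, the share of lower members matched the background: 33 Zfp genes (15.2%) were lower against 15.2% of all measured genes, whereas 9 (4.15%) were higher against 19.1%. Past 4-fold there was 1 Zfp gene in each direction, against 1.67% lower and 3.27% higher of all measured genes.

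**Figure D1:**
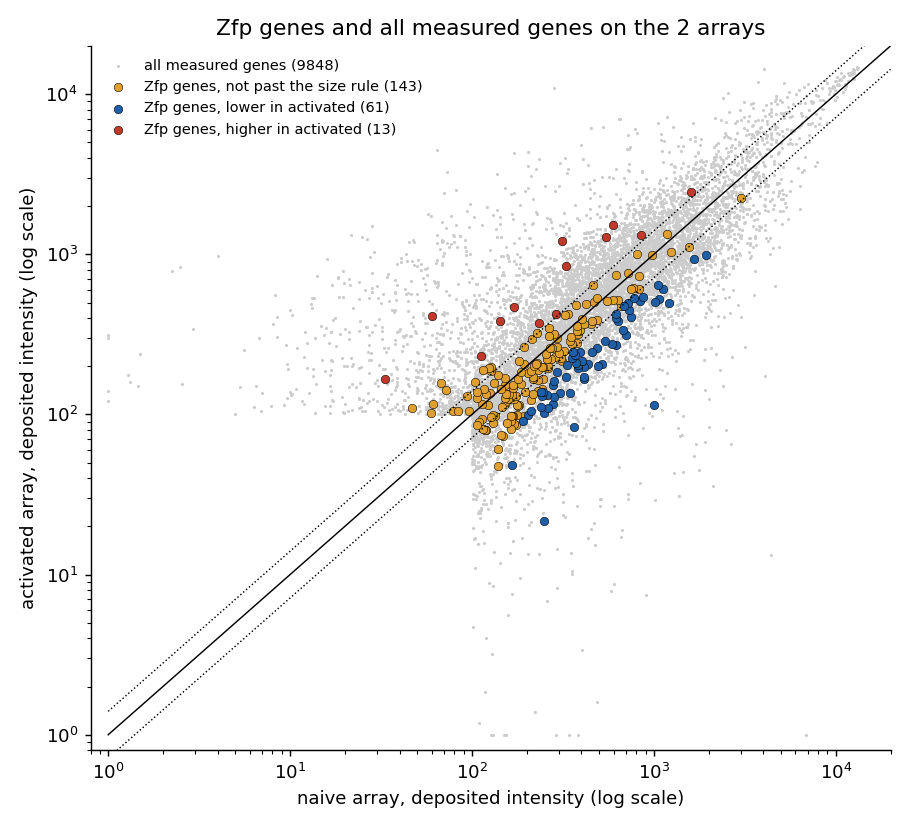
Each point is a gene, with its deposited intensity on the naive array across and on the activated array upward, both on log scales. Grey points are all 9848 measured genes, coloured points the 217 Zfp genes, the solid line marks equal values and the dotted lines 1.4-fold. The 61 lower Zfp genes lie under the lower dotted line, some far below it, such as Zfp945 (998 and 115) and Zfp354c (249 and 21.5). The 13 higher ones are scattered above the upper dotted line.

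The counts were also read within ranges of intensity. The members' means over both arrays ran from 78.4 to 2629. Among the 2998 measured genes whose mean lay between the quartiles of the members' means, 146.4 to 388.9, 20.2% were lower and 21.3% higher, close to the shares over all measured genes. Of the 110 Zfp genes in that range 31.8% were lower and 5.45% higher. Among members reaching 500 on either array, 24 of 49 were lower and 6 higher, against 26.2% and 32.6% of the 5104 genes at that level. Of the 217 members, 177 reached 100 on both arrays, 29 on the naive array only and 11 on the activated array only. A member that passed on 1 array only had to lie lower on the other, so the calls were also counted over the 177. There 56 (31.6%) were lower and 11 (6.21%) higher, against 21.0% and 23.1% of 8395 genes.

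**Figure D2:**
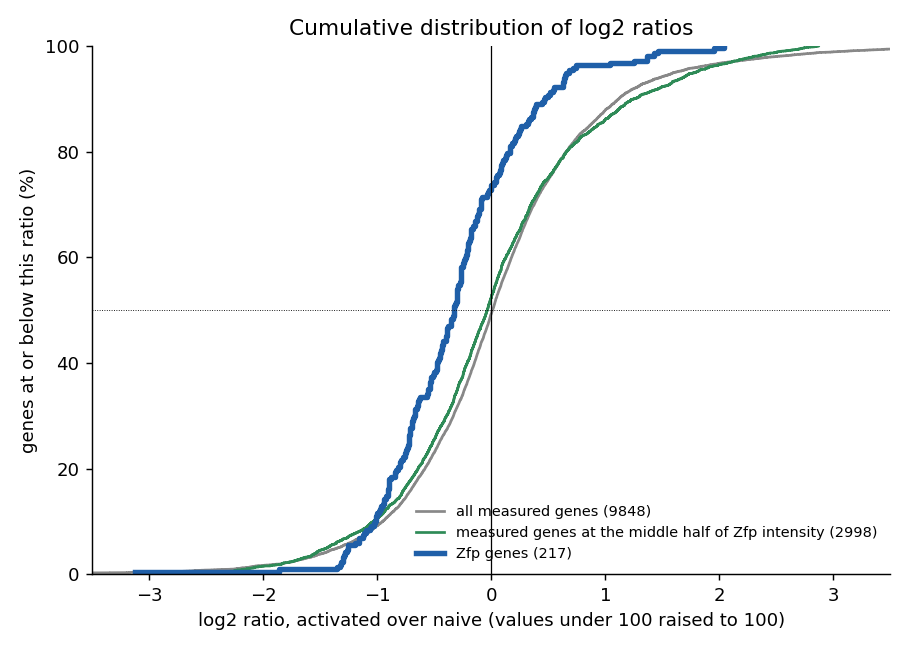
The curves give the percentage of genes at or below each log2 ratio of activated over naive, for the Zfp genes (blue), all measured genes (grey) and measured genes with means between 146.4 and 388.9 (green). The axis leaves out the most extreme genes. The blue curve crosses 50% at -0.33 and the grey one at 0.01, while at ratios under about -1 the curves run close together.

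Just inside the level that chose the members lay Zfp583, with 59.3 on the naive and 103 on the activated array, Zfp296 (78.7 and 105) and Zfp775 (96.8 and 105). Just outside it lay Zfp626 (97.8 and 34.8), Zfp652os (97.4 and 84.4) and Zfp27 (74.6 and 95.8).

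Among the 10 lowest ratios, Zfp945 stood apart. Its brightest probe set was at 998 on the naive and 115 on the activated array (8.71-fold lower). Its second probe set went the same way, with a log2 ratio of -1.29 or below. Zfp652, a repressor that works with the corepressor Cbfa2t3, followed at 364 and 83.7 (at least 3.64-fold lower), and its second probe set gave -1.55 or below. Both genes were thus lower by every probe set that reached 100.

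The next genes lay within a narrow range of folds. Zfp866 was at 347 on the naive and 135 on the activated array (2.56-fold lower), Zfp943 at 517 and 206 (2.50-fold lower) and Zfp354c at 249 and 21.5 (at least 2.49-fold lower). Zfp180 was at 493 and 199.8, Zfp512b at 411 and 167, Zfp329 at 249 and 102, Zfp362 at 1204 and 493, and Zfp946 at 279 and 116, and their folds ran from 2.47 to 2.40. Across all 61 lower members the second lowest log2 ratio was -1.86 and the one nearest 0, that of Zfp955a, was -0.51.

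The 10 highest ratios were led by Zfp608, a gene linked to repression of the Rag genes in thymocytes. It had values of 60.4 (naive) and 412 (activated; at least 4.12-fold higher), and its second probe set, with a log2 ratio of at least 0.93, was called higher too. Zfp280b was at 311 and 1202 (3.86-fold higher), and Zfp219, known as a partner of Sox9 in cartilage, was at 169 and 466 (2.76-fold higher). Both rested on 1 probe set.

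Zfp771 was at 143 on the naive and 385 on the activated array (2.69-fold higher), Zfp52 at 595 and 1535 (2.58-fold higher) and Zfp367 at 329.9 and 849 (2.57-fold higher). A second probe set of each gave log2 ratios of at least 0.25, 0.55 and 0.12, since its naive value was raised to 100. Zfp106, an RNA-binding protein needed by motor neurons and muscle, was at 543 and 1288 (2.37-fold higher), with 0.31 and 1.09 by its other probe sets. All probe sets of these genes that reached 100 lay above 0, though the second ones fell short of the size rule except for 1 of Zfp106. Zfp568 was at 112 and 231 (2.06-fold higher), Zfp948 at 33.4 and 168 (at least 1.68-fold higher) and Zfp770 at 232.7 and 372.5 (1.60-fold higher), each by 1 probe set.

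**Figure D3:**
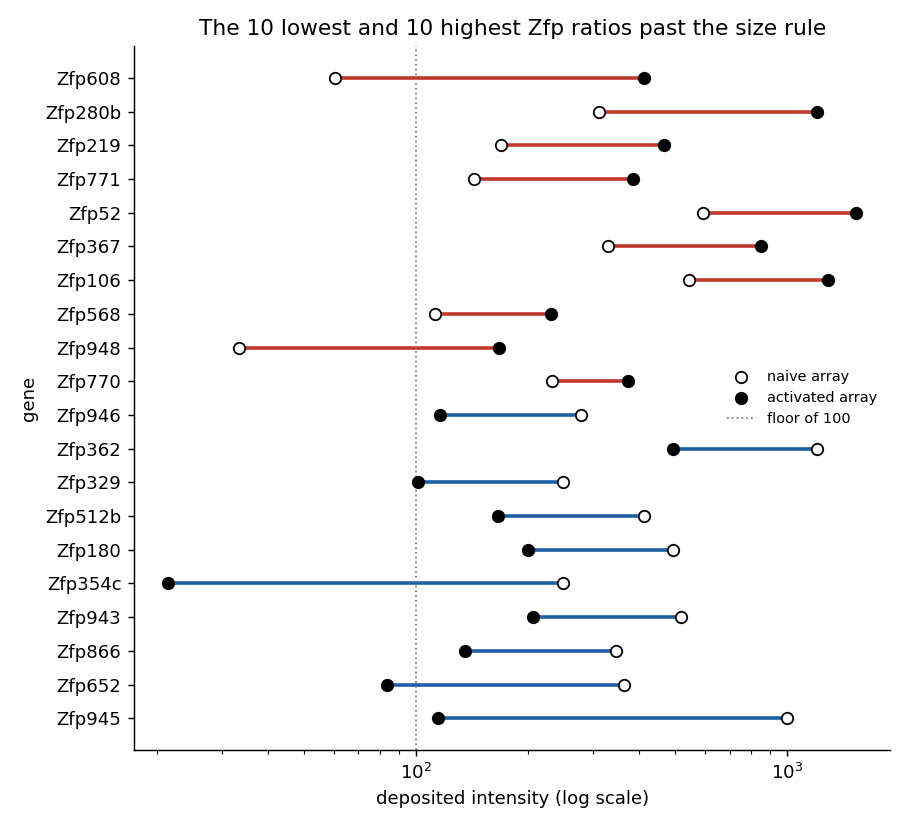
Open circles give the naive and filled circles the activated intensity, on a log scale, for the 10 Zfp genes with the lowest and the 10 with the highest ratios past the size rule. The dotted line marks 100, under which values were raised to 100. Zfp945 (998 and 115) has the longest blue line with both ends above 100, and Zfp608 (60.4 and 412) starts below that level.

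Over the 65 members with several probe sets reaching 100, the log2 ratios within a gene had a standard deviation of 0.39. All 26 lower members with several probe sets had each of them below 0, and in 10 of these every probe set passed the size rule. Of the 6 higher members with several probe sets, 5 had each of them above 0 and 1, Zfp608, had all of them called. The exception was Zfp207, described below. Of the members, 35 lower and 7 higher ones rested on 1 probe set. Zinc finger genes of 1 cluster can be near copies, and 19 members were represented by a probe set of the _x_at or _s_at kind, which the array's maker marks as able to bind several transcripts. Those 19, among them Zfp771, Zfp410, Zfp593, Zfp622 and Zfp644, are uncertain as to the gene. Without them 57 of 198 members were lower and 12 higher.

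Of the 12 measured transcription factors that act at promoters and enhancers, 6 (50%) were lower and 1 (8.33%) higher, against 20.6% and 23.7% of all measured genes, and the median log2 ratio was -0.69. Besides Zfp652, Zfp263, a factor with SCAN and KRAB domains, was at 618 on the naive and 270.4 on the activated array (2.28-fold lower), with 2 probe sets at -1.32 and -1.19. Zfp592, which joins Zfp687 and Zmynd8 in a chromatin complex, was at 432 and 207 (2.09-fold lower, a log2 ratio of -1.06). Its other probe sets gave -0.55 and, short of the size rule, -0.46, and the median over its probe sets was -0.55. Zfp217, an oncogene product that works with the CoREST corepressor, was at 1124 and 603 (1.86-fold lower).

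The related GC-box factors Zfp281 and Zfp148 were both lower. Zfp281 was at 1667 on the naive and 928 on the activated array (1.80-fold lower). A second probe set of Zfp281, at 1029 and 771 (log2 ratio -0.42), did not pass. Zfp148 was at 871 and 543 (1.61-fold lower), with log2 ratios from -0.97 to -0.16 over its 6 probe sets. Members that did not pass were Zfp687 (218 and 134), Zfp24 (1249 and 1032), Zfp384 (552 and 513), Zfp131 (971 and 997) and Zfp410 (465 and 639). Zfp410 is known as a dedicated activator of Chd4, which was at 739 and 833. Zfp532 lay under 100 on both arrays (51.5 and 47.4) and Zfp143 was not analysed here.

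Zfp proteins of RNA and ribosomes went both ways, with 2 of 8 higher (25%), 1 lower (12.5%) and a median log2 ratio of 0.06. Among all measured genes 23.7% were higher, so the share of higher genes in the list lay near the background. Zfp106 led them, as given above. Zfp330, a nucleolar protein, was at 851 on the naive and 1326 on the activated array (1.56-fold higher). Zfp638, which binds RNA and silences unintegrated retroviral DNA, was at 718 and 495 (1.45-fold lower), and its second probe set, at -0.38, did not pass.

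Zfp622 and Zfp593, both of which act in the maturation of the large ribosomal subunit, did not pass, and neither did Zfp598, the ligase that marks collided ribosomes. Zfp622 was at 3021 on the naive and 2236 on the activated array, a log2 ratio of -0.43 that reached the size rule after loess (-0.58) and quantile scaling (-0.55). Zfp593 was at 805 and 1007, though its median over probe sets had the other sign (-0.09), Zfp598 at 832 and 727, the double-stranded RNA binder Zfp346 at 380.3 and 331, and Zfp326, which couples transcription to splicing, at 324 and 417.

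In the list of chromosome segregation and genome maintenance, Zfp207 alone of 6 measured genes (16.7%) passed the size rule, as higher. Over all measured genes 23.7% were higher and 20.6% lower. Zfp207, known as BuGZ, guards the spindle checkpoint protein Bub3 and was at 1595 on the naive and 2460 on the activated array (1.54-fold higher) by its brightest probe set. Its other 4 probe sets pointed the other way, with log2 ratios from -0.92 to -0.30, at 861 and 647 for the brightest of them. The median over its probe sets was -0.41, so the direction of Zfp207 was not settled by these arrays. The SUMO ligase gene Zfp451 was at 389 and 330.03, and its 4 probe sets ran from -0.52 to 0.60. Zfp830 (374 and 482), Zfp668 (119.9 and 134), Zfp827 (158 and 126) and Zfp365 (131 and 88.1) did not pass, and the list median was -0.04.

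Among genes linked to lymphocytes, Zfp608 was higher and the other 3 measured genes lay near no difference. That is 25% higher and none lower, against 23.7% and 20.6% of all measured genes. Zfp91, a ubiquitin ligase of the non-canonical NF-kappaB pathway, was at 1178 on the naive and 1334 on the activated array, with a median over probe sets of the other sign (-0.24). Zfp318, required for IgD expression in B cells, was at 295 and 300.3, and Zfp335, needed for T cell maturation, at 273 and 221. Zfp609 and Zfp683 were not analysed here.

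Of 4 measured silencers of retroelements and imprinted genes, 3 had log2 ratios below 0 and 1 above it, with a median of -0.42. By the size rule 1 (25%) was lower and 1 (25%) higher, against 20.6% and 23.7% of all measured genes. Zfp932, which binds endogenous retroviruses, was at 371 on the naive and 208 on the activated array (1.78-fold lower). Zfp568, which silences a placental transcript of Igf2, was higher, as given above. Both calls were lost with a difference minimum of 200. That of Zfp932 was also lost at a fold minimum of 2, and that of Zfp568 with a floor of 200 (log2 ratio 0.21). Zfp445, a keeper of imprints, was at 1552 and 1112, just short of the size rule at a log2 ratio of -0.48, and was called lower after median (-0.52), quantile (-0.54) and loess scaling (-0.53). Zfp809, which recognises murine leukaemia proviruses, was at 319 and 250.2 and did not pass. Zfp57 (51.7 and 41.4) and Zfp708 (89.6 and 26.6) lay under 100 on both arrays.

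The partners through which KRAB proteins silence chromatin were called about as often as other genes. Of 15 measured partners 4 (26.7%) were higher and 3 (20%) lower, against 23.7% and 20.6% of all measured genes, and the median log2 ratio was 0.30. Trim28, the scaffold, was at 1607 on the naive and 2107 on the activated array and did not pass, although its median over probe sets, 0.50, did. Setdb1, which methylates histone H3 at lysine 9, was at 330.2 and 477 (1.44-fold higher). The call was lost with quantile scaling, with the median over probe sets, at a fold minimum of 2 and with a difference minimum of 200.

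Among the partners higher in activated cells, the largest ratios belonged to DNA methylation maintenance and heterochromatin genes. Uhrf1, which guides Dnmt1 to newly replicated DNA, was at 165 on the naive and 1792 on the activated array (10.8-fold higher), and Dnmt1 at 836 and 1652 (1.98-fold higher). Cbx5, heterochromatin protein 1 alpha, was at 316 and 1041 (3.29-fold higher), with probe sets from 0.00 to 1.76. Lower partners were Atf7ip, which stabilises Setdb1, at 1512 and 353 (4.28-fold lower), the remodeller Chd3 at 1266 and 386 (3.28-fold lower) and Morc3 at 1689 and 900.03 (1.88-fold lower). The size for Atf7ip differed between its probe sets, as its second gave a log2 ratio of -0.62 and the median was -1.36. Hdac1 (2289 and 2822), Hdac2 (1112 and 1377), Cbx1 (1843 and 2484), Smarcad1 (538 and 580.3), Mphosph8 (595 and 651) and Morc2a (293 and 285) did not pass by their brightest probe sets. By the median over probe sets Cbx1 (log2 ratio 0.49) and Smarcad1 (0.53) were called higher, as Trim28 was. Cbx3 did not reach 100 on either array (26.6 and 36.1 by its own brightest probe set).

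**Figure D4:**
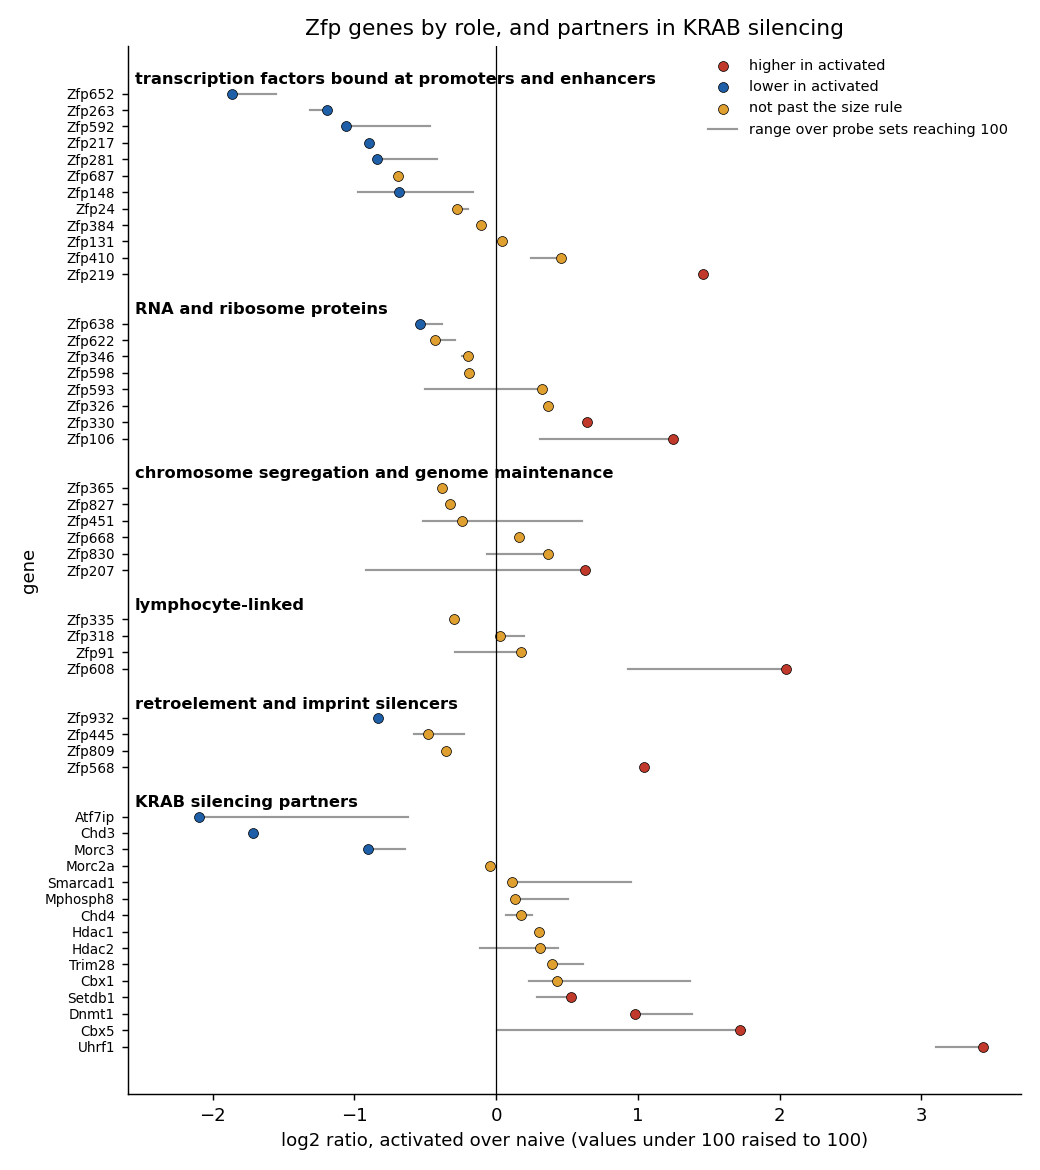
Points give the log2 ratio of activated over naive for each measured gene of the role lists, by its brightest probe set, and grey bars the range over its probe sets that reached 100. Colours mark calls by the size rule. Most promoter and enhancer factors lie left of 0 (median -0.69), most KRAB silencing partners right of it (median 0.30), and the bar of Zfp207 crosses 0.

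Zinc finger families outside the Zfp series were counted in the same way. Of 31 Zbtb genes, which join zinc fingers to a BTB domain, 6 (19.4%) were lower and 1 (3.23%) higher, against 20.6% and 23.7% of all measured genes, with a median log2 ratio of -0.34. The higher one, Zbtb32, a factor induced in activated lymphocytes, had values of 47.1 (naive) and 906 (activated; at least 9.06-fold higher). Of 11 Zscan and Zkscan genes, which carry a SCAN domain, 4 (36.4%) were lower and 1 (9.09%) higher, with a median of -0.15. No difference between these families and the Zfp genes was tested.

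Position in the genome was not used to choose the members. In the RefSeq gene order of mouse assembly GRCm38.p6, which held 216 of the 217 members, 114 members had another Zfp, Zscan or Zkscan gene as the next protein-coding gene on at least 1 side. Of these 35 (30.7%) were lower and 5 (4.39%) higher, with a median log2 ratio of -0.39. Of the 102 others 25 (24.5%) were lower and 8 (7.84%) higher, with a median of -0.27. Allowing up to 3 genes on each side gave medians of -0.39 for 134 members and -0.22 for 82. Over all measured genes 20.6% were lower and 23.7% higher. The medians of both groups lay below that of all measured genes, 0.01. Members of 1 cluster share sequence, so they are not independent of each other.

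Runs of adjacent zinc finger genes differed among themselves. Over all runs with 3 or more measured members, 26 of 74 members (35.1%) were lower and 3 (4.05%) higher. The shares of all measured genes were 20.6% and 23.7%. In some runs, such as those from Zfp397 to Zfp24 and from Zfp472 to Zfp763, no member passed the size rule. The runs below were picked after values were seen. In the run from Zfp868 to Zfp866 all 4 measured members were lower, with log2 ratios from -1.36 to -0.73. In the run from Zfp760 to Zfp994, which holds Zfp942 and Zfp943, 4 of 5 were lower, and in the run from Zfp595 to Zfp729a all 9 had ratios below 0 and 3 were called lower. The run from Zfp944 to Zfp946, with a median of -1.10, had 2 of 3 lower.

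Neighbours could also point in opposite directions. The run from Zfp677 to Zfp983 held 2 higher and 3 lower members among 7 measured. In it Zfp51, Zfp53 and Zfp52 follow each other. Zfp52 was higher, as given above, whereas Zfp53 was at 1049 on the naive and 647.5 on the activated array (1.62-fold lower) and Zfp51 at 636 and 383 (1.66-fold lower). Zfp53 has a pair of probe sets, and both were called lower. In the run from Zfp84 to Zfp566, Zfp568 was the only higher member among 8, of which 7 had ratios below 0.

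**Figure D5:**
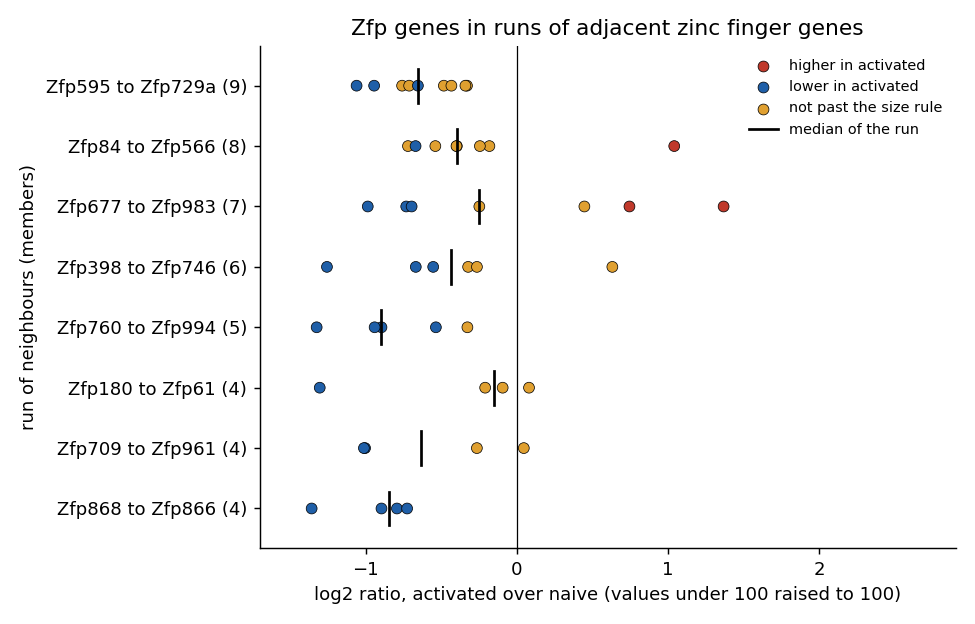
Each row is a run of adjacent zinc finger genes in the RefSeq order with 4 or more measured members, and each point a member's log2 ratio of activated over naive, coloured by its call. Black bars are medians. The run from Zfp868 to Zfp866 lies wholly left of 0, while the run from Zfp677 to Zfp983 spans -0.99 to 1.37.

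The promoters of Zfp52 and Zfp53, the adjacent genes with opposite calls, are shown because their sequences are related. Both are RefSeq sequences of GRCm38.p6 from 250 bases before to 50 after the annotated start, on the + strand, 5′ to 3′. Zfp52 lies at chr17:21535289-21535588 and Zfp53 at chr17:21488738-21489037. A local alignment paired 217 bases of them, of which 171 (78.8%) were identical. It also held 15 gap positions, which that share leaves out.
Zfp52: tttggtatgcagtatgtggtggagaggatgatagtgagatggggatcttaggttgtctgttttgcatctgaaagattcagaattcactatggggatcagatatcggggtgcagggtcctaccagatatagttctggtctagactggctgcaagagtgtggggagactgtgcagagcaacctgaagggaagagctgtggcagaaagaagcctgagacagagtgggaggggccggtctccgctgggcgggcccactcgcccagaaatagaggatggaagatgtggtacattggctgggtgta
Zfp53: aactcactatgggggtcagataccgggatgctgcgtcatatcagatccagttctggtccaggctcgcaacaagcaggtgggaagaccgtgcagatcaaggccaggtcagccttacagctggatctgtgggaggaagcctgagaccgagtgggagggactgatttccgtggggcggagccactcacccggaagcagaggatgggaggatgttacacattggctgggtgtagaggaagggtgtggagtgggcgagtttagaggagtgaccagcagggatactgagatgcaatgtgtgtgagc

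Letters of the E2F type were looked for in the promoters, since E2F factors drive genes of dividing cells. The motifs were TTTCCCGC, TTTGGCGC, TTTCGCGC and TTTGCCGC, searched on both strands and allowed to overlap. At least 1 of them stood in the promoters of 13 of the 183 members found in the table (7.1%), in 5.05% of 8046 measured genes and in 2.6% of all 27025 genes listed. Among the higher members 2 of 11 held one, Zfp367 and Zfp444, and among the lower members 2 of 52, Zfp871 and Zfp644. Over all measured genes the shares were 7.37% of the higher and 3.18% of the lower genes. A match of letters is a description and no evidence of binding.

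The promoters of both higher members with a match are shown, with the matched letters in capitals. For Zfp367 the start with 2 matches is given, at chr13:64153150-64153449 on the - strand, and its other listed start has 1 match. Zfp444, at 288 on the naive and 421 on the activated array (1.46-fold higher), has its promoter at chr7:6172263-6172562 on the + strand.
Zfp367: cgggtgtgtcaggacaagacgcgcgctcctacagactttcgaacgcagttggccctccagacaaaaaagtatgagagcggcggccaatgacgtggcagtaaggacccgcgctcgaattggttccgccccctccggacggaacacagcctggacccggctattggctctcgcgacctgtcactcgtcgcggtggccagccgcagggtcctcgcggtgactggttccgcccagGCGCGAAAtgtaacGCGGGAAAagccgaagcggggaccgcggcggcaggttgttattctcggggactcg
Zfp444: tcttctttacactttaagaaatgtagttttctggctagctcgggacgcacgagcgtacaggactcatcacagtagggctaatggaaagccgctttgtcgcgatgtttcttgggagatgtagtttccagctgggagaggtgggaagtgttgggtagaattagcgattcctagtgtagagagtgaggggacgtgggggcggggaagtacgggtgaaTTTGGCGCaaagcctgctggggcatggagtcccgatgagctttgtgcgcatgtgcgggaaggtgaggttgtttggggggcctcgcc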

How the data were processed

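RNA of naive and activated CD8+ T cells was measured on 1 Affymetrix mouse array each. The authors deposited linear intensities, 1 for each probe set. Per the series' design text they come from dChip, whose difference model takes mismatch signals off perfect-match signals, and were scaled by an invariant set of probe sets. The version of dChip is not stated in the sources used here. Presence calls of GCOS, named in the submitters' processing notes, and dChip's confidence bounds were not used here, so the size rule keeps only the parts of the study's rule that intensities allow.

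Such differences are poorly determined near background, so values under 100 were raised to 100 before a ratio, and where 1 value was raised the fold is a lower bound. Intensities of different genes were not set against each other and served across genes only as filters and in sums of marker lists. Controls were left out, leaving 45037 probe sets. Names came from the platform annotation, and 27 probe sets that name a Zfp gene together with another gene were left out. The calling step was checked on simulated data, which gives no error rate for these arrays. Computations used Python 3.11.15, pandas 2.3.3 and statsmodels 0.14.6. The members and lists were chosen with earlier results of these data known. Named genes were every measured member of the role lists, the 10 highest and 10 lowest ratios past the size rule, and 3 genes on each side of the level of 100. Other genes, such as Zfp51, Zfp53, Zfp444, Zfp871, Zfp644, Zfp955a, Zbtb32 and the run members, and the split by neighbours, were chosen after values were seen.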

Additional observations from a re-analysis of the deposited data

Results flagged for a closer look

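Of the 27 probe sets that name a Zfp gene together with other genes, which were used in no count above, 13 reached 100 on at least 1 array and 5 passed the size rule. These signals lie outside the main measurement and cannot be given to 1 gene. A probe set shared by Zfp706 and Gm10193 was at 1020.04 on the naive and 1507 on the activated array (log2 ratio 0.56). The pair's other probe sets that reached 100 did not pass, at 1558 and 1840 (0.24), 850 and 909 (0.10) and 1067 and 1110 (0.06). A probe set shared by Zfp91 and Gm44505 was at 189.5 and 300.0 (0.66). Lower in activated cells were a probe set shared by Zfp526 and 9130221H12Rik, at 585 and 351 (-0.74), a probe set of Zfp965, Zfp966, Zfp967, Zfp971, Zfp973, Gm14440 and Gm14288, at 585 and 388 (-0.59), and a probe set of Zfp747, Zfp764, E430018J23Rik and 9130019O22Rik, at 320.1 and 216 (-0.56).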

How the results depend on the processing

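At a fold minimum of 2, 8 members were higher and 25 lower. With a difference minimum of 50, 21 were higher and 83 lower, and with one of 200, 9 were higher and 33 lower, the latter being 15.2% of members and of all measured genes. Under the remaining alternatives, namely floors of 50 and 200, median, quantile and loess scaling, and the median over probe sets, with those added after seeing the data, the counts ran from 11 to 14 higher and from 48 to 66 lower, within 1.5 times the reported ones. The members' median ran from -0.37 under median scaling to -0.07 with a floor of 200, where that of all measured genes was 0.00. Of the 36 named genes past the size rule 1 changed sign, Zfp207, to -0.41 by the median over probe sets; the cause was not tested. Of the named genes short of it, 6 changed sign: Zfp91 and Zfp593 under the same setting, and Zfp131, Zfp318, Smarcad1 and Morc2a, to within 0.05 of 0, under median, quantile or loess scaling. Over the 64 named genes and 9 other settings, a call was lost 28 times and gained 9 times. Counting members at 100 or more on both arrays, or leaving out _x_at and _s_at probe sets, was added after seeing the data. The planned split by KRAB box was not run, since it needs protein sequences, which were not used here. No paired analysis was possible because each group is 1 array.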
